A study of Mus musculus with 6 samples.

Results

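The genes described here encode the proteins of the mouse centromere and kinetochore, together with the checkpoint and passenger proteins that act there. The group is a fixed set of 38 gene symbols, and each symbol was matched by its Ensembl identifier to a row of the gene count table. All 38 were found among the 43309 genes of the table, all are annotated as protein coding, and all passed the minimum of 10 counts in at least 1 library that left 16823 genes for testing. The list includes Cenpj, which carries a centromere name but encodes a protein of the centriole.

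Centromeres are marked by nucleosomes that carry the histone H3 variant CENP-A, and in the mouse they lie in satellite DNA. On these nucleosomes sits an inner layer of proteins, the constitutive centromere-associated network (CCAN), and in mitosis the Mis12 and Ndc80 complexes are built on it and bind the spindle microtubules. Many of these genes are transcribed mainly in the late S, G2 and M phases, so that their mRNAs are abundant in fast-dividing cells such as embryonic stem cells. Loss of ZBTB24, a zinc finger protein, causes a form of ICF syndrome (immunodeficiency, centromeric instability, facial anomalies), in which satellite DNA next to centromeres loses methylation.

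The counts come from 6 TruSeq Stranded mRNA libraries, each made from 2 µg of total RNA. The cells are mouse embryonic stem cells (mESCs), which are pluripotent, of the strain J1 (129SV). The genotype of 3 lines, with 1 library each, is Zbtb24 wild-type (2lox/+), and these are the controls, while that of the other 3 is Zbtb24 knockout (1lox/1lox). The lines of both groups were grown in medium with serum on gelatin, with no feeder layer. The paper describes them as independently derived, so that by its account 1 clone stands behind each library. Whether libraries of a group share an origin was not tested here. The libraries held 25042261 to 28838924 counts. Without molecular identifiers PCR copies cannot be told from separate molecules, and the errors given include no more than counting and the spread between libraries.

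The whole-gene count of the targeted gene was higher, not lower, in the group with the knockout genotype. Zbtb24 had 510, 512 and 489 counts in the control libraries against 888, 925 and 1039 in the other group (log2 fold change 0.99 ± 0.05 SE, adjusted p = 4.32e-23 by the quasi-likelihood test of edgeR and Benjamini-Hochberg adjustment). A count over the whole gene cannot show whether the fragments lie outside a deleted stretch, so it speaks neither for nor against the label. For this reason the second group is called the libraries labelled knockout, and every direction below is the difference from the control libraries to those. Of the other ICF genes, Dnmt3b, a DNA methyltransferase, fell by 2.07 on the log2 scale, Cdca7 fell by 1.504 and the remodeler gene Hells fell by 0.09. All 6 mESC markers were abundant, with a summed level of 3927 to 4035 cpm (counts scaled to a common library size) in the controls and 4915 to 4959 in the other group, and 5 of them rose (Pou5f1 0.20, Sox2 0.43, Nanog 1.13, Esrrb 1.16 and Dppa5a 0.20 on the log2 scale) while Zfp42 fell by 0.77. The 6 fibroblast markers summed to 48.15 to 52.31 cpm in the controls and 5.44 to 6.50 in the libraries labelled knockout, with 4 of the 5 tested lower. Among them, Col1a1 had a log2 fold change of -3.39, Dcn had 5 to 11 counts against 0 to 1, Col1a2 and Col3a1 were also lower, Pdgfra was not called and Lum was at 0 in every library. The 5 endoderm markers summed to 3.34 to 3.86 cpm against 1.84 to 2.56, with Gata4, Sox17 and Foxa2 lower, Gata6 not called and Afp not tested. The part of these cell markers in the results below was not tested.

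Of the 38 centromere and kinetochore genes, 20 were higher in the libraries labelled knockout, 10 were lower and 8 did not pass the threshold, an adjusted p of at most 0.05. Over all genes tested the same test called 69.5%, with 34.4% higher and 35.2% lower. Among the 8611 genes whose mean count was at least that of the lowest member (340.3 counts) it called 78.5%, and the 30 members called are 78.95% of the list, so that the share of members called was near the share of genes of like counts. The 3 libraries of a group did not overlap those of the other for 32 members (84.2%), as they did not for 71.5% of all genes. The latter share takes in genes with few counts. It was not computed for genes of like counts, so these shares cannot show an excess among the members. In bulk RNA, a different number of cells in the phases in which these genes are transcribed and a different amount of RNA per cell cannot be told apart, for higher and lower members alike.

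The changes were small for most members. The median log2 fold change was 0.08 over the members, 0.04 over genes of like counts and -0.0004 over all genes tested. Without regard to sign, the median was 0.14 over the members, 0.21 over genes of like counts and 0.34 over all genes, and 25 of the 38 members had a change under 0.2 either way. Only Cenpf, Nuf2 and Cenpw reached a change of at least 0.5 on the log2 scale, 7.89% of the list, as against 20.3% of the genes of like counts and 33.9% of all genes that were called with a change of that size. As a value per library, the median of the members lay at -0.0092 to 0.0012 in the controls, relative to the mean of the controls, and at 0.06 to 0.08 in the libraries labelled knockout. The spread between libraries of a group was low (a common coefficient of variation of 2.00%), and differences of a few percent passed the test. The p-values measure the difference against this spread only. They would overstate the evidence if lines of a group shared an origin. With the coefficient of variation set to 0.2 for every gene, 3 members were still called, namely Cenpf (adjusted p = 0.000191), Nuf2 (adjusted p = 0.00577) and Cenpw (adjusted p = 0.0255, all with edgeR), and 25.8% of all genes. DESeq2 called 28 of the members and 61.4% of all genes. The plot of log2 fold changes by role shows how the members lie around 0.

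**Figure D1:**
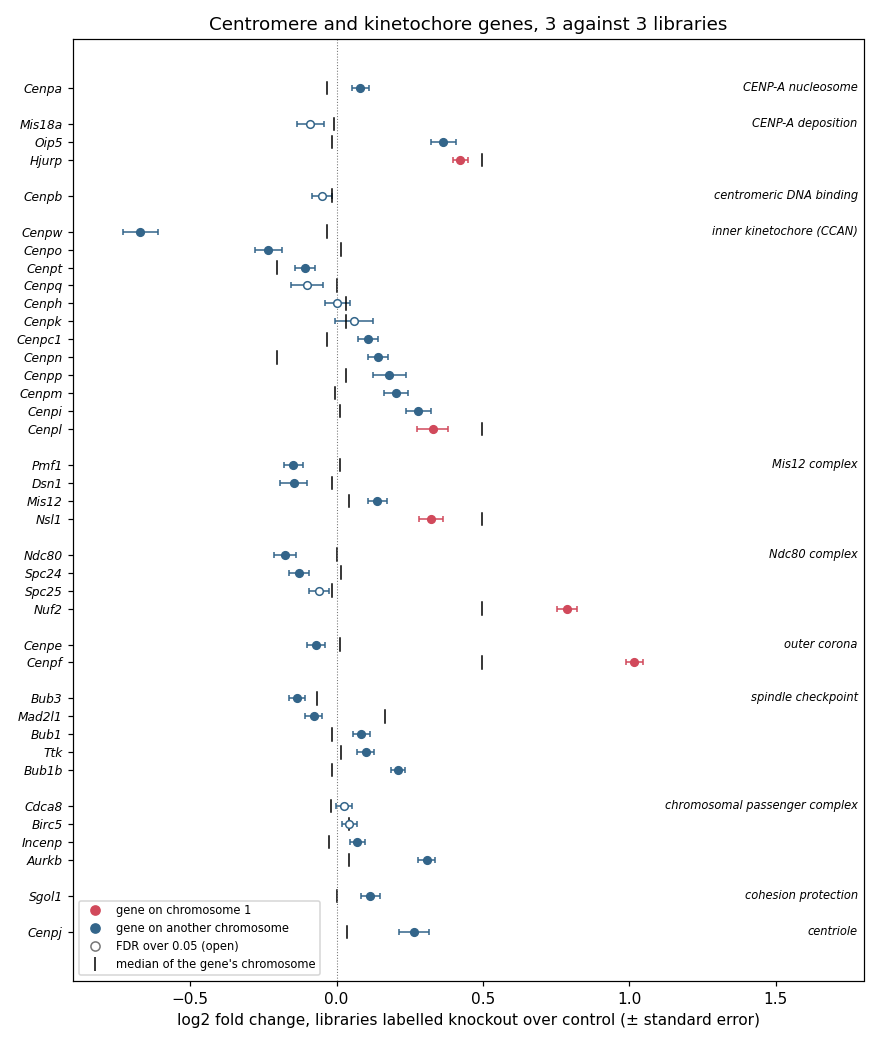
Log2 fold change of each of the 38 genes, libraries labelled knockout over control (x axis, with standard error as bars), ordered by role (y axis). Red points are genes on chromosome 1, open points had an adjusted p over 0.05, and short black lines mark the median of the other genes on the same chromosome. Cenpf (1.02) and Nuf2 (0.79) lie farthest to the right and Cenpw (-0.67) farthest to the left.

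The members that rose most included a set on 1 chromosome. Hjurp, Cenpl, Nuf2, Cenpf and Nsl1 lie on chromosome 1, and all 5 were higher, with log2 fold changes of 0.42, 0.33, 0.79, 1.02 and 0.32 and a median of 0.42. Chromosome 1 as a whole was higher in the libraries labelled knockout. Over its 975 other genes whose mean count was 10 or more, the median log2 fold change was 0.50, 76.6% of them were above 0, and 62.6% of its genes tested were called higher. The median was 0.17 on chromosome 6 and -0.20 on chromosome 8, and it lay between -0.07 and 0.04 on the others. The 33 members outside chromosome 1 comprised 15 that were higher, 10 that were lower and 8 that were not called, and their median was 0.04. The share of the 33 called was 75.8%, as against 78.5% of genes of like counts. When each member was set against the median of its own chromosome, 21 of 38 lay above it and the median difference was 0.03. The cause of the chromosome-wide difference was not tested.

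**Figure D2:**
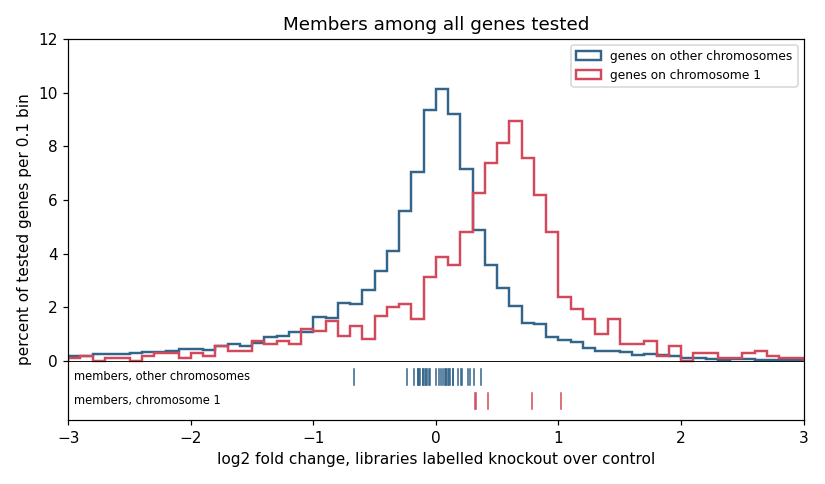
Distribution of log2 fold changes (x axis, libraries labelled knockout over control, shown from -3 to 3) as percent of tested genes per bin of 0.1 (y axis), for chromosome 1 in red and the other chromosomes in blue. The ticks under the curves mark the 5 members on chromosome 1, all between 0.32 and 1.02, and the 33 members on the other chromosomes, between -0.67 and 0.36.

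Cenpf had the largest change of the 38. It encodes a large coiled-coil protein that reaches the outer kinetochore in mitosis, and lies at chr1:189640606-189688086 of mm10 on the minus strand. It was counted 5456, 4776 and 4697 times in the control libraries and 9578, 8842 and 10284 times in those labelled knockout. Per length and after scaling, these are 17.4, 15.6 and 15.4 FPKM (fragments scaled for library size and transcript length) against 33.0, 32.3 and 32.7. Every library labelled knockout was above every control, with the level about doubled (fold change 2.02, log2 fold change 1.02 with a standard error of 0.03, adjusted p = 7.11e-33, edgeR's quasi-likelihood test). This was more than most of its chromosome, since the log2 fold change of Cenpf exceeded that of 88.6% of the 975 other chromosome 1 genes. It lay 0.52 above the chromosome's median, and 0.35 above the median of 0.67 (log2) of the 57 genes within 5 Mb on either side.

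Nuf2, the partner of Ndc80 in the dimer that holds microtubules, was the other member above the median of chromosome 1. At chr1:169497934-169531464 on the minus strand, it had 14.2, 13.4 and 14.4 FPKM in the controls and 24.7, 23.7 and 24.2 FPKM in the libraries labelled knockout. The groups were far apart, and the rise of 0.79 on the log2 scale (standard error 0.03, adjusted p = 4.34e-26, edgeR) lay 0.29 above the chromosome's median and 0.44 above that of its 88 neighbours within 5 Mb.

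Cenpw changed most among the genes that fell. It encodes a small histone-fold protein that pairs with CENP-T in the CCAN and lies at chr10:30194569-30200560 on the minus strand. The counts were 646, 586 and 578 in the controls and 340, 328 and 413 in the libraries labelled knockout, and the levels were 5.54, 5.15 and 5.08 FPKM against 3.14, 3.22 and 3.53 FPKM. All 3 libraries labelled knockout were below all 3 controls, and Cenpw fell by 0.67 on the log2 scale (standard error 0.06, adjusted p = 4.05e-14, edgeR). Its 31 neighbours within 5 Mb had a median of -0.01, and the median of chromosome 10 was -0.03.

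The promoters of these 3 genes are shown because they carry the largest changes, and that of Mad2l1, a checkpoint gene, because it holds a motif described for ZBTB24 in both orientations. The sequences are from RefSeq on GRCm38.p6, 170 bases each from 140 before the transcription start site to 30 from it, 5′ to 3′ on the strand of the gene. Capitals mark CCAAT, the box bound by NF-Y, and TTTGAA, a core of the cell cycle genes homology region (CHR), on either strand in Cenpf and Cenpw, and CAGGACCT on either strand in Mad2l1. The Cenpf promoter is at chr1:189688057-189688226 (minus), that of Nuf2 at chr1:169531435-169531604 (minus), that of Cenpw at chr10:30200511-30200680 (minus) and that of Mad2l1 at chr6:66535081-66535250 (plus).
Cenpf: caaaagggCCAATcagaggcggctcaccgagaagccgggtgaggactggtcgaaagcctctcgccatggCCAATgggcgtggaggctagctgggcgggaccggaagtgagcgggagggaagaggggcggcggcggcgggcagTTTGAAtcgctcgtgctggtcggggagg
Nuf2: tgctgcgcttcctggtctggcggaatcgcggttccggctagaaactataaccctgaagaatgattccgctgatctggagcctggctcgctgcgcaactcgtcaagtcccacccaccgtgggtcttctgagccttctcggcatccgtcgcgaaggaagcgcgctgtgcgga
Cenpw: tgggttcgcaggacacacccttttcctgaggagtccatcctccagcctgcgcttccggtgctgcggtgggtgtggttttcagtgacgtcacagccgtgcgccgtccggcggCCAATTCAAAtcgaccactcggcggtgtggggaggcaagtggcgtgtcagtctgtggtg
Mad2l1: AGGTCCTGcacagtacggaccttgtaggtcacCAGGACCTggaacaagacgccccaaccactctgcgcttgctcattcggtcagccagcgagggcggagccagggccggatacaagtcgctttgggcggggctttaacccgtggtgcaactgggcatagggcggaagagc
In Cenpf, CCAAT begins 132 and 71 bases before the start site and TTTGAA at base 3 after it. In Cenpw the CCAAT box and TTTGAA on the opposite strand share 1 base, so that they appear as 1 run of capitals. The Nuf2 sequence holds none of the motifs searched.

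These motifs were searched on both strands in the window from 250 bases before to 50 after each RefSeq start site. A promoter was found for 34 of the 38 genes, and Incenp, Aurkb, Spc24 and Nsl1 had no entry. TTTGAA was present for 14 of the 34 (41.2%), as against 14.4% of 11948 genes tested and 20.2% of all 27025 genes with a promoter. CCAAT was present for 23 (67.6%), as against 42.9% and 41.1%, and 13 genes held both, among them Cenpa, Hjurp, Oip5, Bub1b, Bub3, Cdca8 and Ttk. GGCGGGAA, a form of the E2F site, was present for 5 (14.7%), namely Cenpc1, Cenph, Cenpn, Cenpo and Dsn1, as against 4.65% and 2.52%. CAGGACCT was present for 2 (5.88%), Mad2l1 and Pmf1, as against 2.2% and 2.3%. Both genes were slightly lower in the libraries labelled knockout (-0.08 and -0.15 on the log2 scale), as were 35.2% of all genes tested. The call of Mad2l1 was lost without control library 1 or labelled knockout library 2. A link between the motif and these changes was not tested. Genes with TTTGAA and CCAAT moved in both directions, for example Oip5 up (0.36) and Cenpw down (-0.67). A match is a description of the letters only.

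The genes of the CENP-A nucleosome and its deposition were led by Hjurp, the chaperone that delivers CENP-A to the centromere. At 45.5, 45.3 and 44.4 FPKM in the controls and 60.2, 60.6 and 60.5 FPKM in the libraries labelled knockout, it was higher by 0.42 on the log2 scale (standard error 0.02, adjusted p = 1.11e-20, edgeR). The 2 sets of libraries were well apart, but the change was -0.08 relative to the median of chromosome 1 and 0.07 above that of its 81 neighbours within 5 Mb. Cenpa itself, the histone, had 28.1, 28.8 and 28.7 FPKM against 30.3, 29.1 and 31.0 FPKM. Its groups did not overlap, by a narrow margin, and the log2 fold change was 0.08 (adjusted p = 0.0142, edgeR), a call that was lost without control library 1 (adjusted p = 0.0549, edgeR), without labelled knockout library 3 (adjusted p = 0.0756, edgeR) and with DESeq2 (adjusted p = 0.0566). The ratio of Hjurp to Cenpa per length went from 1.58 ± 0.039 to 2.01 ± 0.067 (SD, n = 3 each, exact permutation p = 0.1).

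The Mis18 complex, which prepares the centromere for new CENP-A, was uneven. Oip5, its Mis18-beta subunit, had 16.4, 16.7 and 17.0 FPKM in the controls and 21.8, 21.6 and 21.1 FPKM in the libraries labelled knockout. It rose by 0.36 (adjusted p = 2.22e-10, edgeR), more than any other member outside chromosome 1, and 0.37 above the median of its 98 neighbours on chromosome 2. Mis18a, the other subunit, had 11.93, 11.99 and 12.14 FPKM against 11.03, 10.98 and 11.83 FPKM, a log2 fold change of -0.09 that was not called (adjusted p = 0.073, edgeR), though it passed without labelled knockout library 3 (-0.13, adjusted p = 0.0221, edgeR). Cenpb, which binds a short box in the satellite repeats, had a log2 fold change of -0.05 that was not called (adjusted p = 0.193, edgeR). The body of Cenpb overlaps Spef1 on the same strand, and fragments shared by both genes were discarded by the authors.

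The 12 CCAN genes divided into 6 that were higher, 3 that were lower and 3 that were not called. Among the higher, Cenpi had 11.5, 11.1 and 11.1 FPKM against 13.4, 14.5 and 13.1 FPKM, so that all of the second group were above the controls (log2 fold change 0.28, adjusted p = 8.84e-08, edgeR). Cenpl, at 4.32, 4.65 and 4.22 FPKM against 5.14, 5.60 and 5.82 FPKM, rose by 0.33 (adjusted p = 3.7e-07, edgeR). As a chromosome 1 gene, Cenpl stood at -0.17 relative to the chromosome's median and at -0.18 relative to its 59 neighbours. Cenpn, which pairs with CENP-L and reads the CENP-A nucleosome, rose by 0.14, and lies on chromosome 8, where the median was -0.20 (-0.01 over its 58 neighbours within 5 Mb). Cenpm rose by 0.20, Cenpp by 0.18 and Cenpc1, which ties CENP-A nucleosomes to the Mis12 complex, by 0.11.

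Beside Cenpw, the CCAN members called lower were Cenpo and Cenpt. Cenpo had 8.03, 7.49 and 7.25 FPKM against 6.36, 6.47 and 6.53 FPKM, with no overlap, and fell by 0.23 (adjusted p = 1.77e-05, edgeR). Cenpt, whose product recruits the Ndc80 complex, had 27.5, 29.96 and 30.8 FPKM against 28.0, 27.4 and 26.5 FPKM. Control library 1 lay within the other group, and the call (log2 fold change -0.11, adjusted p = 0.00395, edgeR) was lost without control library 3 (adjusted p = 0.0712, edgeR). Cenpt also lies on chromosome 8, and its log2 fold change turned to 0.10 relative to the chromosome's median, while it stood at -0.07 relative to its 108 neighbours within 5 Mb. Cenph (0.00), Cenpk (0.06) and Cenpq (-0.10) were not called, with standard errors of 0.04, 0.07 and 0.06. Of the histone-fold pair, Cenpw stood at 0.179 ± 0.019 of the level of Cenpt in the controls. In the libraries labelled knockout it stood at 0.121 ± 0.011 (SD, n = 3 each, exact permutation p = 0.1). Both ratios depend on the lengths used, those of the longest annotated transcripts (4143 bases for Cenpw and 3281 for Cenpt).

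**Figure D3:**
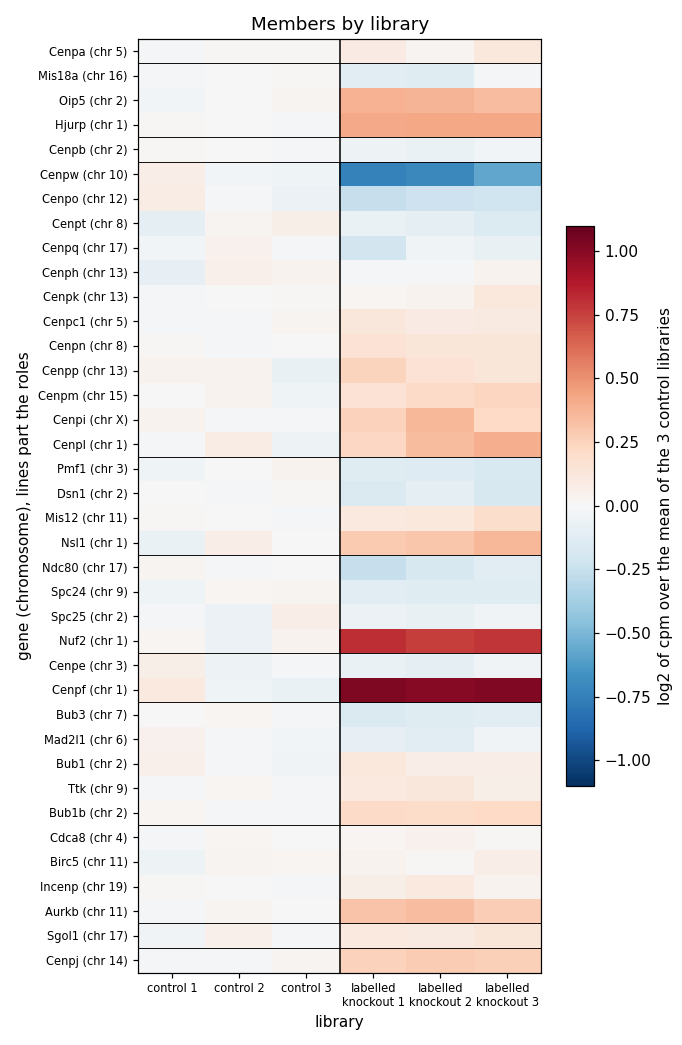
Log2 of the cpm of each of the 38 genes (rows, with the chromosome) in each library (columns) over the mean of the 3 control libraries, with red above and blue below that mean. The 3 libraries labelled knockout share the strongest colours in Cenpf and Nuf2 (red) and Cenpw (blue), and the other rows are paler.

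Within the Ndc80 and Mis12 complexes, subunits were called in both directions. In the Ndc80 complex, which couples the kinetochore to microtubules, Nuf2 rose as given above while its direct partner Ndc80 fell. Ndc80 had 16.4, 15.9 and 16.0 FPKM in the controls and 13.5, 14.3 and 14.9 FPKM in the libraries labelled knockout, and fell by 0.18 (adjusted p = 3.31e-05, edgeR) with no overlap of the groups. Its gene body overlaps the small gene Gm23115 on the same strand. The level of Nuf2 relative to Ndc80 went from 0.869, 0.845 and 0.901 in the controls to 1.82, 1.67 and 1.63 in the libraries labelled knockout, 1.96 times the control mean. The 2 sets of 3 ratios did not overlap, and the exact permutation test (two-sided) gave p = 0.1, the smallest that 3 against 3 libraries allow.

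Spc24 and Spc25 form the other end of the Ndc80 complex. Spc24 fell by 0.13 (adjusted p = 0.000936, edgeR), from 37.9 ± 1.15 to 34.6 ± 0.15 FPKM (SD, n = 3 each). Its 83 neighbours within 5 Mb on chromosome 9 had a median of -0.13, which leaves a difference of 0.0028. Spc25 was at 38.4 ± 1.91 and 36.8 ± 0.57 FPKM with overlapping groups and was not called (log2 fold change -0.06, adjusted p = 0.117, edgeR), and it passed only without control library 2 (-0.09, adjusted p = 0.0297, edgeR). Relative to Ndc80 both had overlapping groups, with exact permutation p = 0.4 for Spc24 (2.36 ± 0.11 to 2.44 ± 0.13) and p = 0.2 for Spc25 (2.39 ± 0.12 to 2.59 ± 0.11, SD, n = 3 each). Nuf2 against Spc24 went from 0.371 to 0.699 and against Spc25 from 0.365 to 0.657, without overlap.

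In the Mis12 complex, the platform for Ndc80, 2 genes were higher and 2 lower, where 78.5% of genes of like counts were called. Nsl1, on chromosome 1, had 7.13, 7.92 and 7.49 FPKM against 9.16, 9.30 and 9.69 FPKM and rose by 0.32 (adjusted p = 3.07e-09, edgeR). This was less than its surroundings, at -0.18 relative to the chromosome's median and -0.24 relative to its 54 neighbours. Mis12 rose by 0.14 (adjusted p = 0.000155), while Dsn1 fell by 0.15 (adjusted p = 0.00428) and Pmf1 fell by 0.15 (adjusted p = 0.000118, all edgeR). Against Nsl1 the others therefore shifted, with Nsl1 to Dsn1 going from 0.654 to 0.904, Nsl1 to Pmf1 from 0.244 to 0.338 and Nsl1 to Mis12 from 0.297 to 0.336, each without overlap. In all, 12 such ratios were computed, 10 of them had groups that did not overlap, and no adjusted p was below 0.12 (Benjamini-Hochberg over the 12). No exact permutation p could be smaller than 0.1, so these tests could not pass a threshold of 0.05. Of all single genes tested, 71.5% had groups that did not overlap. Nuf2, Nsl1, Cenpf and Hjurp lie on chromosome 1, where the median was 0.50, and were set against genes of other chromosomes.

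**Figure D4:**
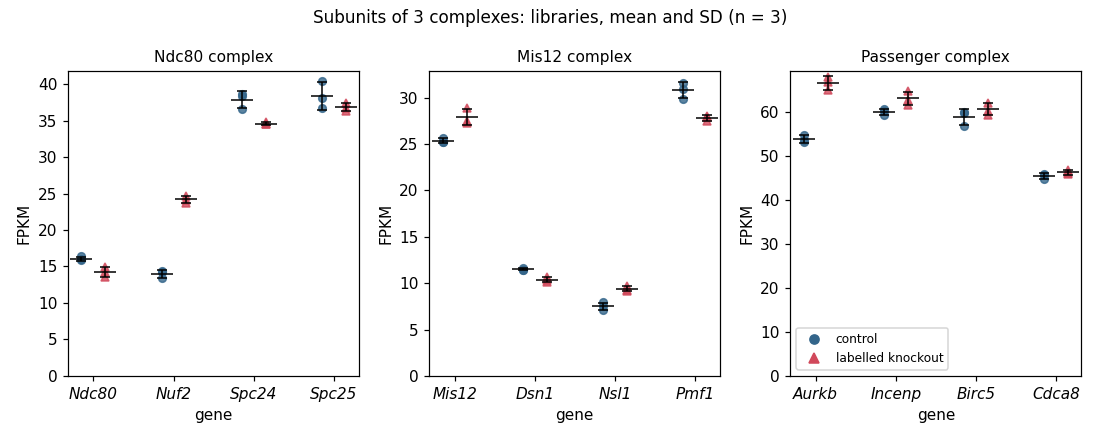
Level per length (FPKM, y axis) of the subunits of the Ndc80, Mis12 and chromosomal passenger complexes (x axis) in the 3 control libraries (blue circles) and the 3 libraries labelled knockout (red triangles), with the mean and SD in black (n = 3). Nuf2 goes from 14.02 to 24.2 FPKM while Ndc80, Spc24 and Spc25 are at or below their control levels, and Aurkb goes from 53.9 to 66.8 FPKM beside 3 partners whose log2 fold changes are 0.07 (Incenp), 0.04 (Birc5) and 0.03 (Cdca8).

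In the outer corona, Cenpe, the kinesin that brings chromosomes to the spindle equator, had 18.0, 16.6 and 17.0 FPKM against 16.4, 16.0 and 16.8 FPKM. The groups overlapped and the change was small (log2 fold change -0.07, adjusted p = 0.0331, edgeR). The call was lost without control library 1 (adjusted p = 0.27), labelled knockout library 1 (adjusted p = 0.0677) or labelled knockout library 2 (adjusted p = 0.169, all edgeR), and with DESeq2 (adjusted p = 0.0795). Cenpf to Cenpe went from 0.938 ± 0.032 to 2.00 ± 0.039 per length (SD, n = 3 each, exact permutation p = 0.1).

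All 5 spindle checkpoint genes were called, 3 higher and 2 lower, none by more than 0.21 on the log2 scale, where 78.5% of genes of like counts were called. Bub1b, the gene of the checkpoint protein BUBR1, had the highest level per length of all 38 in the controls, with 72.1, 70.5 and 70.3 FPKM, and 82.1, 81.6 and 82.4 FPKM in the libraries labelled knockout. The groups were apart by more than their spread, and Bub1b rose by 0.21 (adjusted p = 1.36e-10, edgeR). The kinase genes Ttk (0.10, adjusted p = 0.00285) and Bub1 (0.08, adjusted p = 0.00577) also passed in edgeR's test, that of Bub1 not without control library 3 (adjusted p = 0.0703). Bub3, the partner of BUB1 and BUBR1, had 41.4, 42.0 and 40.9 FPKM against 37.2, 37.9 and 38.1 FPKM and fell by 0.14 (adjusted p = 1.34e-05, edgeR). Mad2l1, which encodes the checkpoint effector MAD2, had a log2 fold change of -0.08 (adjusted p = 0.0141, edgeR) that was lost without control library 1 (adjusted p = 0.0927) or labelled knockout library 2 (adjusted p = 0.0915). Chromosome 6, where Mad2l1 lies, had a median of 0.17, but its 19 neighbours within 5 Mb had -0.09.

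The chromosomal passenger complex corrects wrong attachments through the kinase Aurora B. Its gene Aurkb had 53.2, 54.9 and 53.7 FPKM in the controls and 67.0, 68.2 and 65.1 FPKM in the libraries labelled knockout. Aurkb rose by 0.31 (standard error 0.03, adjusted p = 2.27e-13, edgeR), with the groups well apart. Its scaffold Incenp had 60.8, 60.3 and 59.4 FPKM against 63.0, 64.8 and 61.8 FPKM, a log2 fold change of 0.07 (adjusted p = 0.0143, edgeR) that was lost without control library 3 (adjusted p = 0.0881) or labelled knockout library 2 (adjusted p = 0.111). Birc5, the gene of survivin (0.04, adjusted p = 0.144), and Cdca8, that of borealin (0.03, adjusted p = 0.404), were not called by edgeR. Aurkb to Incenp went from 0.896 ± 0.018 to 1.06 ± 0.007 (SD, n = 3 each, exact permutation p = 0.1).

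The last members each stand alone. Sgol1, annotated as Sgo1, protects cohesion at the centromere and rose by 0.12 (adjusted p = 0.00157, edgeR), from 20.7 ± 0.74 to 22.4 ± 0.26 FPKM. Cenpj, the centriole gene, had the lowest level per length of the 38, with 3.97, 3.97 and 4.08 FPKM in the controls and 4.77, 4.86 and 4.81 FPKM in the libraries labelled knockout, and rose by 0.26 (adjusted p = 1.5e-05, edgeR) with no overlap.

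By level, the 38 genes spanned 4.01 to 70.95 FPKM in the controls, with a median of 19.2 FPKM. The order from the top was Bub1b, Incenp (60.2 ± 0.74), Birc5 (58.9 ± 1.81), Aurkb (53.9 ± 0.84), Bub1 (48.4 ± 1.74), Cdca8 (45.5 ± 0.70) and Hjurp (45.1 ± 0.63 FPKM, SD, n = 3), where Incenp and Birc5, and Cdca8 and Hjurp, lay within the spread of each other. All 4 passenger genes were thus among the 6 highest. The lowest were Cenpj (4.01 ± 0.065), Cenpl (4.399 ± 0.22), Cenpw (5.26 ± 0.25) and Cenpk (5.95 ± 0.065 FPKM). Lengths are those of the longest annotated transcript, so a gene that uses a shorter one is set too low. Summed over the 38, the level was 3245 to 3277 cpm in the controls and 3644 to 3670 cpm in the libraries labelled knockout. Genes on chromosome 1 weigh heavily in this sum. The mean of Cenpf went from 179.6 to 363.4 cpm, that of Hjurp from 219.8 to 294.7 and that of Nuf2 from 54.5 to 94.05. The sum is thus no measure of the typical member, and the median over the 33 members elsewhere was 0.04 on the log2 scale.

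**Figure D5:**
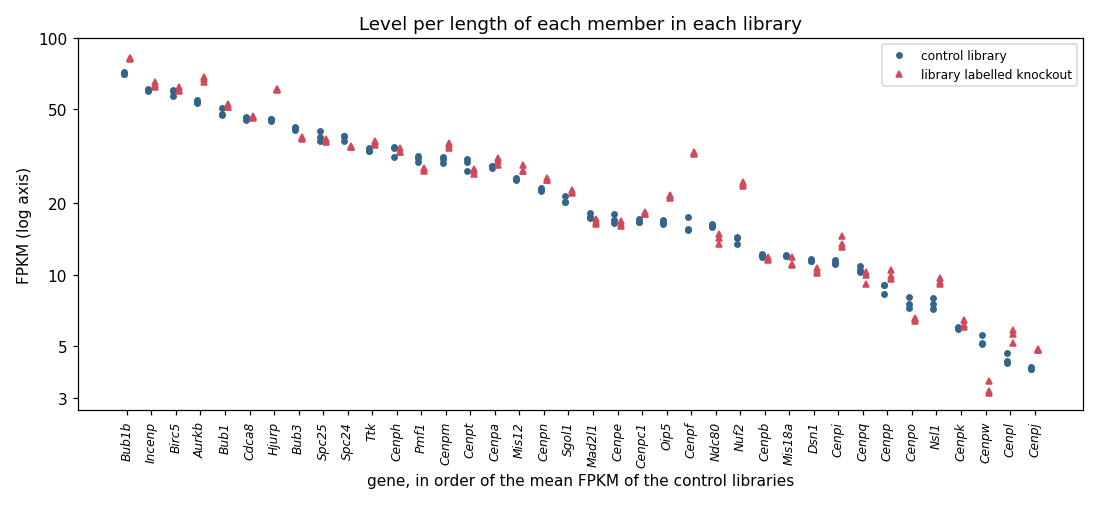
Level per length (FPKM, log axis) of the 38 genes (x axis, in order of the control mean) in each control library (blue circles) and each library labelled knockout (red triangles). Levels run from about 4.01 FPKM for Cenpj to 70.95 for Bub1b in the controls, and Cenpf, Nuf2 and Cenpw are the genes whose groups are farthest apart.

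Other genes of the kinetochore gave the setting for these values. In a list of 25 that are not members, 13 were higher, 3 were lower and 9 were not called, and the median was 0.09 on the log2 scale. The test called 64.0% of them, as against 69.5% of all genes tested and 78.5% of genes with counts like those of the members. The largest changes were in Clasp1 (0.60), a microtubule plus-end gene, Kntc1 (0.57), a subunit of the RZZ complex that brings dynein to the kinetochore, and Sgol2 (0.51). Sgol2 is annotated as Sgo2a and was listed, like Sgol1, under the protection of cohesion. Clasp1 and Sgol2 lie on chromosome 1 and Kntc1 on chromosome 5.

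Among 18 marker genes of the G2 and M phases, 9 were higher, 4 were lower and 5 were not called, with a median of 0.06. The test called 72.2% of them, as against 69.5% of all genes tested and 78.5% of genes with counts like those of the members. The largest changes were in the phosphatase gene Cdc25c (0.55), in Cdc20, the activator of the anaphase-promoting complex (-0.32), and in the kinase gene Plk1 (0.25). Their summed level was 4663 to 4716 cpm in the controls and 4779 to 4806 cpm in the libraries labelled knockout. Of 11 genes for factors that act at G2/M promoters, 5 were higher, 3 were lower and 3 were not called. The share called was 72.7%, to be set beside the same 69.5% and 78.5%. The regulators were led by Lin9 (0.65), a chromosome 1 gene of the MuvB core, E2f1 (0.53) and Foxm1 (0.29). Foxm1 lies on chromosome 6, and its 70 neighbours within 5 Mb had a median of 0.56, which leaves it at -0.27 relative to them. The part of these genes and of the cell cycle in the differences of the members was not tested.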

How the data were processed

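The authors made TruSeq Stranded mRNA libraries of mESCs, removed reads that mapped to rRNA with Bowtie2 2.1.0, mapped the rest to mm10 with TopHat2 2.0.10 and counted fragments per GENCODE M4 gene by strand with HTSeq 0.6.1 (versions as in the study's processing notes, which also name CASAVA 1.8.2). The deposited counts are raw. Only fragments assigned to a single gene and aligned once were kept, which lowers the count of any gene with a near-identical copy. No column was left without a sample. Symbols (found for 42425 of 43309 genes), coordinates and lengths are from GENCODE M21.

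Genes that reached 10 counts in 1 library or more were tested in R 4.3.3 with edgeR 4.0.16 (TMM, glmQLFit, glmQLFTest, no covariate), 3 against 3 libraries, with Benjamini-Hochberg adjustment over all genes tested. Standard errors are the log2 fold change over the root of F. FPKM used TMM-scaled cpm and the longest transcript. The script was tested on simulated data. DESeq2 1.42.0, other scalings, filters, dispersions, a minimum change, a replicate block and leaving out each library were alternatives. Replicate libraries differed beyond sampling noise. The text names every member, Zbtb24, the 3 largest called changes of each longer list and any gene of lists of at most 6. The members and lists were chosen with earlier results of these data known.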

Additional observations from a re-analysis of the deposited data

How the results depend on the processing

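With each library left out in turn, 18 to 20 members were higher and 8 to 11 lower, the median log2 fold change was 0.065 to 0.080, and 14 to 17 of the other kinetochore genes and 12 to 13 of the G2/M genes were called. Of the 30 members called, 24 kept the call each time. Replicate numbers were taken from the titles. Deviations of same-numbered libraries from their group means correlated at 0.017, 0.073 and 0.013. With 3 libraries per group, such values cannot show whether libraries of the same number share more than the number. With the number as a replicate block, 20 members were higher and 10 lower, with 16 other kinetochore and 13 G2/M genes called. Not every library correlated best with its own number.

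With a dispersion of 0.04, 2 members were higher and 1 lower, with 1 other kinetochore gene and 0 G2/M genes called, as against 16 and 13. By construction, that setting replaces the spread between these libraries. With a minimum change of 0.5, the counts were 2, 1, 3 and 1. The median over the members, 0.075, became 0.035 less each chromosome's median, 0.090 with TMM computed without chromosomes 1, 6 and 8, and 0.044 without the members on chromosome 1. Cenpe was not called under that TMM setting (adjusted p = 0.0926, edgeR) or without the filter (adjusted p = 0.0525, edgeR).

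Cenph, not called, turned negative with DESeq2 (-0.00052), filterByExpr (-0.0020), upper quartile scaling (-0.0045) and without control library 1 or labelled knockout library 3 (-0.043 and -0.014, the range over all libraries left out being -0.043 to 0.028). Less the median of neighbours within 5 Mb, an alternative chosen after the data were seen, the sign changed for Cenpl (-0.18), Nsl1 (-0.24), Spc24 (0.0028) and Mad2l1 (0.0095). The cause was not tested.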
